A study of Mus musculus with 7 samples.

Results

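The replication-dependent histone genes are the protein-coding genes of the Hist1, Hist2, Hist3 and Hist4 clusters, taken by their gene symbols in the GENCODE vM21 annotation of the mouse genome build GRCm38. Of 67 such genes in the table, 60 had at least 1 count in at least 1 library and were kept, out of 55487 genes in all. The kept genes encode 5 H1, 16 H2A, 16 H2B, 10 H3 and 13 H4 histones. Of these, 49 lie in the Hist1 cluster between positions 21715763 and 23934156 of chromosome 13, 9 in the Hist2 cluster between positions 96219865 and 96270132 of chromosome 3, and 1 each at Hist3 (Hist3h2a, chromosome 11) and Hist4 (Hist4h4, chromosome 6). The genes were chosen by symbol and selected on a single measured value, the count of at least 1, which did not use the comparison of conditions. Just inside it, 6 genes had 1 count in total (Hist2h2bb, Hist1h3h, Hist1h2an, Hist1h2bp, Hist1h1a and Hist1h2ba), and 7 had none (Hist1h1t, Hist1h2aa, Hist1h2ak, Hist1h2bb, Hist1h3g, Hist2h3b and Hist3h2ba).

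The counts came from mouse precision-cut liver slices (PCLS), thin discs of liver kept in culture with their cell types in place, made from healthy, adult, male Balb/c mice with no introduced allele. All slices were cultured in supplemented WME medium until day 3, either without additive (CTR, 3 libraries) or with 2.5 mM valproic acid (VPA, 4 libraries), an inhibitor of class I histone deacetylases. RNA was sequenced from its 3′ ends, which compares the histone genes after culture with and without VPA. The study takes a biological repeat to be a separate liver, but the labels do not tie libraries to animals, so p-values measure the spread between these libraries. The title of each library also holds a number from 71 to 74, of which 71, 72 and 74 occur in both groups, and what it marks is not stated.

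Core histones H2A, H2B, H3 and H4 form the spool around which DNA is wound, and linker histone H1 binds where DNA enters and leaves it. The genes of the replication-dependent clusters are transcribed mainly in S phase, when new DNA has to be packed. Their mRNAs are unusual in that most end in a conserved stem-loop, bound by the stem-loop binding protein Slbp and cut downstream with the help of the U7 snRNP, in place of a poly(A) tail. Some clustered genes, linker histone genes among them, also give polyadenylated transcripts in cells that no longer divide, as most hepatocytes of adult liver do. Libraries primed with oligo(dT), such as those used here, start from stretches of A in the RNA.

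The stem-loop was searched for in the reference transcripts because it defines this type of mRNA. The letters GGNNCTTNTNANNNCC were found on the transcript strand after the stop codon in 42 of the 60 genes, starting 22 to 59 bases after it. Among 40165 other protein-coding transcripts, 28 (0.0697%) held these letters in the first 100 bases after the stop codon. Of the 18 genes without a match, 13 had almost no sequence annotated after the stop codon. Another of them was Hist1h2bc, whose annotated transcript is spliced. The commonest form was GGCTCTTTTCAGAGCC, in 25 genes, followed by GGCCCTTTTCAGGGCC in 7. Below are the 30 bases around the stem-loop of 8 of the 9 genes with enough counts for a test, and of Hist1h2ae, one of the better covered H2A genes without a test, read 5′ to 3′ from GENCODE vM21 with the 16 bases of the stem-loop in capitals.
Hist1h1c: taacaatccaaaaGGCTCTTTTCAGAGCCa
Hist1h1d: gaaaatctcaaacGGCTCTTTTCAGAGCCa
Hist1h1e: ccaacaacccaaaGGCTCTTTTCAGAGCCa
Hist1h2ao: gaaaaaaaaaaaaGGCTCTTTTCAGAGCCa
Hist1h2ap: gaaaaaaaaaaaaGGCTCTTTTCAGAGCCa
Hist1h2ae: taaaaaaaacaaaGGCTCTTTTCAGAGCCa
Hist3h2a: tacagacaccaaaGGCTCTTTTCAGAGCCa
Hist1h4h: ctacaaaaccaaaGGCCCTTTTCAGGGCCg
Hist1h4i: aatgctacttaaaGGCCCTTTTTAGGGCCa
In GRCm38 these lie at chr13:23739499-23739528 (Hist1h1c, plus strand), chr13:23555774-23555803 (Hist1h1d, plus), chr13:23621781-23621810 (Hist1h1e, minus), chr13:21810885-21810914 (Hist1h2ao, plus), chr13:21833028-21833057 (Hist1h2ap, minus), chr13:23570667-23570696 (Hist1h2ae, minus), chr11:58955159-58955188 (Hist3h2a, plus), chr13:23531445-23531474 (Hist1h4h, plus) and chr13:22040965-22040994 (Hist1h4i, minus). All 9 windows are in the 3′ UTR.

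The windows show a difference among the H2A genes: in Hist1h2ao and Hist1h2ap a run of 12 A stands directly before the stem-loop, at bases 27 to 38 after the stop codon, where Hist1h2ae has no run of that length. In the 100 bases after the stop codon, a run of at least 12 A was present in 2 of the 60 genes, these, against 142 of 40165 other transcripts (0.354%). Hist1h2ac has such a run further on, at base 857. A poly(A) signal (AATAAA or ATTAAA on the transcript strand) followed the stop codon in 19 of the 60 genes. Those 19 had a median of 40 counts over all 7 libraries and held 55% of the counts on histone genes, while the 41 genes without a signal had a median of 9 counts. Of these 41, however, 13 had almost no sequence annotated after the stop codon in which to find a signal, and a median of 2 counts. A median of 65.8% of the 50-base stretches of the 41 genes occurred in other genes, against 24.6% for the 19. How often other transcripts hold such a signal was not counted. Of the 9 tested genes, 6 had such a signal, and Hist1h1e, Hist1h2ao and Hist1h2ap had none in their annotated transcripts. At which of these stretches the reads began was not tested.

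**Figure D1:**
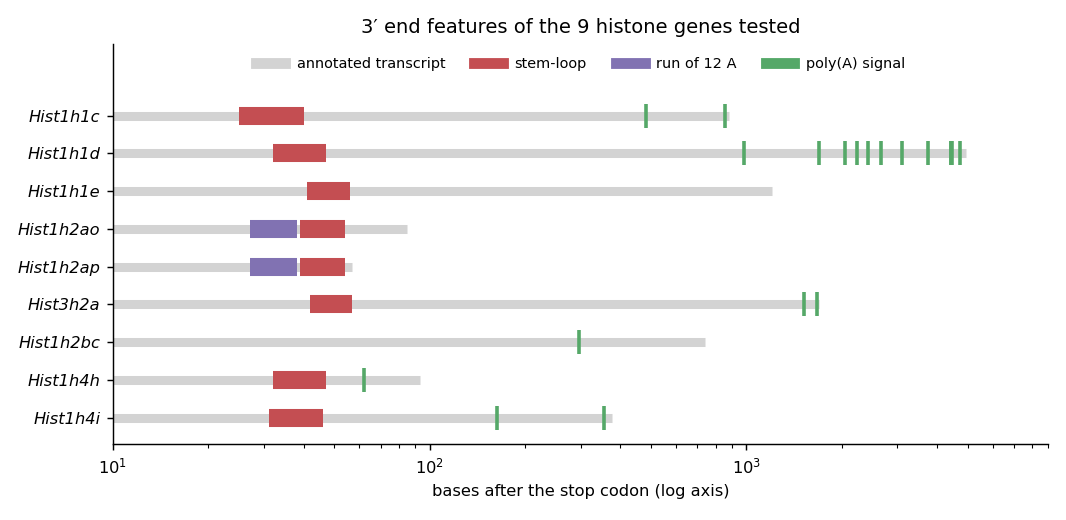
Features after the stop codon of the 9 tested histone genes, in bases after the stop codon on a log axis that starts at base 10 (grey, annotated transcript; red, stem-loop; purple, run of 12 A; green ticks, poly(A) signals). The run of A stands directly before the stem-loop in Hist1h2ao and Hist1h2ap, and Hist1h2bc has a poly(A) signal and no stem-loop.

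Histone genes took a small share of the reads. The libraries held 1400887 to 4773750 counts on genes, of which 0.0161% to 0.0344% lay on the 60 genes, 4603 counts in all. Levels are given as CPM, the counts divided by the effective library size and put on a common scale. Where a gene had 0 counts, its level may have been as high as 3 counts, or 0.591 CPM in the deepest and 2.41 CPM in the shallowest library, by counting error alone. Under 10 counts were found for 27 genes, and 13 had a count in every library. The edgeR filter on low counts kept 9 of the 60 (15%), against 41.7% of all genes with a count, and these 9 held 82.8% of the histone counts. H1 genes held 34.5% of the histone counts, H2A 30.3%, H2B 19.1%, H4 14.1% and H3 2.0%, which are shares of reads and are not scaled by length. The total and these shares hold both Hist1h2ao (419 counts) and Hist1h2ap (421 counts), whose counts are nearly identical and may be the same reads.

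**Figure D2:**
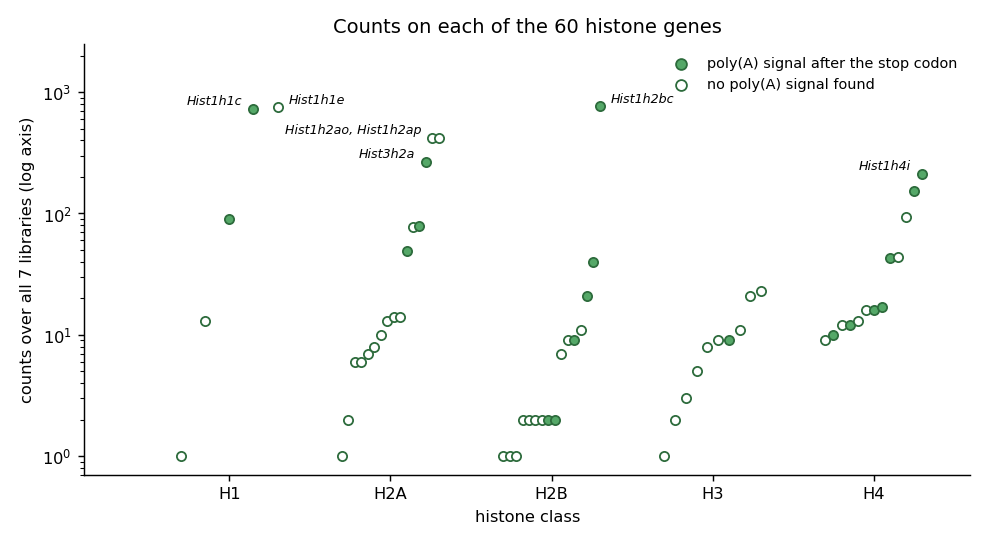
Counts summed over all 7 libraries for each of the 60 histone genes (points, log axis) by class, filled where a poly(A) signal follows the stop codon and open where none was found. No H3 gene exceeded 23 counts, while Hist1h1c, Hist1h1e and Hist1h2bc lie highest, at 731, 751 and 768.

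The number of histone genes with a count was 38, 49 and 34 in the CTR libraries and 28, 32, 25 and 36 in the VPA libraries. Brought to the smallest library total by thinning, the expected numbers were 29.2, 33.7 and 30.3 against 27.8, 27.5, 25.0 and 35.5. At equal depth the groups overlapped through VPA replicate 4, while the other VPA libraries lay below every CTR library. A difference in how many of these genes were seen was not tested. Over the whole table, fewer genes had a count in every VPA library (14359 to 16761) than in any CTR library (17744 to 19756), and thinned to the same total 14204 to 16678 against 17170 to 17862, so the number of genes seen moved with the group. Its part in the results on histone and S-phase genes, counts of 0 included, was not tested.

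Of the 9 tested genes, the linker histone genes Hist1h1d and Hist1h1e were higher in every VPA library than in any CTR library (so for 4.44% of all genes), and the H2A genes Hist1h2ao and Hist1h2ap, whose counts are nearly identical, were lower (7.41% of all genes). The other 5, Hist1h1c, Hist3h2a, Hist1h2bc, Hist1h4h and Hist1h4i, overlapped between the groups. None of the 9 passed an adjusted p of 0.05 in edgeR's quasi-likelihood test with Benjamini-Hochberg adjustment over 10876 genes, a threshold that 0.00919% of all genes passed upward and 0.0% downward. At an unadjusted p under 0.05, 2 were higher (3.65% of all genes) and 2 lower (4.62%), the 4 genes without overlap. The filter, which asked for 5.74 CPM by library total in 3 libraries, was met by each group on its own for 4 of the 9 genes, for Hist1h2ao and Hist1h2ap through CTR libraries alone, and for Hist1h1d, Hist1h4h and Hist1h4i through VPA libraries alone. A filter met through the group where a gene is high favours genes that differ, so these counts are a description. DESeq2 gave an adjusted p to 18 of the 60 genes and called the 2 lower ones, where it called 0.746% of 15415 genes lower and 0.253% higher. The median log2 fold change was 0.23 over the 9 genes and -0.06 over all genes tested. Because whole slices were sequenced, fewer cells of a type and less RNA per cell cannot be told apart.

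Hist1h2ao and Hist1h2ap, which encode the same core histone H2A, had the largest difference among the tested histone genes. Hist1h2ao (ENSMUSG00000094248, chromosome 13, positions 21810465 to 21810944, plus strand) measured 48.5, 37.5 and 36.2 CPM in the CTR libraries and 5.22, 4.00, 7.23 and 7.55 CPM in the VPA libraries. Every VPA library was far below every CTR library, and the spread within each group was small beside the gap. The means were 40.7 ± 6.75 CPM (SD, n = 3) and 6.0 ± 1.69 CPM (SD, n = 4). The fitted log2 difference was -2.77 with a standard error of 0.363, a level 6.83-fold lower with VPA. The adjusted p was 0.101 in edgeR's quasi-likelihood test (unadjusted p = 7.97e-05) and 2.05e-06 in DESeq2, so edgeR did not call it and DESeq2 did. In the edgeR fit its counts met the filter through the CTR libraries, where it is high, which limits that value as support. DESeq2 was run without this filter, and edgeR without a filter on low counts gave an adjusted p of 0.054.

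The values of Hist1h2ap (ENSMUSG00000094777, positions 21833026 to 21833507, minus strand) are not a separate observation. Its coding sequence is identical to that of Hist1h2ao, and the transcripts of 480 and 482 bases share an unbroken stretch of 452 bases that includes the run of A and the stem-loop shown above. The counts were identical in 6 of 7 libraries and differed by 2 in the other. No gene outside the pair came within 5 counts plus 10% of Hist1h2ao in every library. Its log2 difference was -2.78, with an adjusted p of 0.101 in edgeR and 1.91e-06 in DESeq2. Reads of the shared stretch cannot be told apart by locus, so the pair gives 1 measurement whose locus is uncertain. Each gene is also overlapped on the opposite strand by an annotated miRNA gene (Gm19658 and Gm44466), both at 0 counts.

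Of the other 14 H2A genes, 1 had enough counts for a test. This was Hist3h2a, the only H2A gene of the Hist3 cluster. It had 21.7, 15.97 and 13.7 CPM without VPA and 7.83, 16.6, 7.23 and 23.4 CPM with it. The groups overlapped, with means of 17.1 ± 4.11 and 13.8 ± 7.73 CPM and a log2 difference of -0.31 (standard error 0.537, adjusted p = 0.953 in edgeR). Hist3h2a overlaps Trim17 on the same strand, which had 18 counts, 16 of them in VPA replicate 2. Among the H2A genes without a test, Hist1h2ac (79 counts) ranged from 0.788 to 10.8 CPM in CTR slices and from 0.755 to 5.88 CPM with VPA. Hist2h2aa1 (78 counts), which shares its coding sequence with Hist2h2aa2, ranged from 3.29 to 5.91 and from 0 to 6.76 CPM. Hist1h2ae (49 counts) ranged from 0.548 to 5.72 and from 0 to 4.30 CPM. All 3 overlapped between the groups, and the counts of the rest were too low to show a difference. Hist2h2aa1 overlaps the noncoding gene Gm20634 on the same strand, whose 145 counts (65 in CTR and 80 in VPA libraries) are outside the histone genes.

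Summed over the 16 H2A genes, which does not depend on how reads were split among these 16 but counts a read placed at 2 loci as 2 and misses reads given to Gm20634, the level was 128, 116 and 94.8 CPM in CTR slices and 45.0, 37.8, 33.7 and 54.4 CPM with VPA, a log2 ratio of the means of -1.40. The groups did not overlap. With Hist1h2ap left out as a copy the ratio was -0.98, and with both genes of the pair left out it was -0.04, at 31.6 ± 9.16 against 30.7 ± 8.57 CPM. These 14 other H2A genes therefore overlapped between the groups, and the lower H2A sum lay in the pair.

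**Figure D3:**
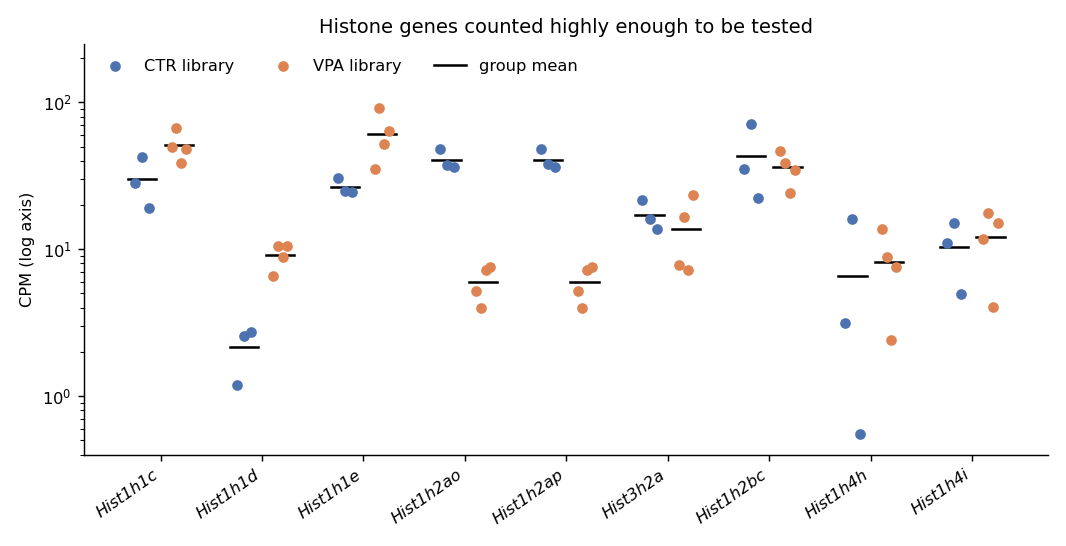
Level in CPM of the 9 tested histone genes on a log axis, in each library (points), with lines at the means of the 3 CTR and 4 VPA libraries. Hist1h2ao and Hist1h2ap lie lower and Hist1h1d and Hist1h1e higher in every VPA library than in any CTR library, while the other 5 overlap.

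Of the 3 tested linker histone H1 genes, Hist1h1d and Hist1h1e were higher in every VPA library, as were 4.44% of all genes, and Hist1h1c was higher in mean level. None passed the adjusted threshold. Hist1h1e (ENSMUSG00000051627, chromosome 13, positions 23620629 to 23622558, minus strand), which encodes H1.4, measured 30.3, 24.8 and 24.7 CPM in CTR slices and 35.3, 92.2, 52.2 and 63.4 CPM with VPA. The VPA libraries were all higher but spread widely, VPA replicate 1 lying close to the CTR level. Means were 26.6 ± 3.23 and 60.8 ± 24.0 CPM, and the log2 difference was 1.20 (standard error 0.341), with an adjusted p of 0.398 and an unadjusted p of 0.00868 in edgeR. Hist1h1e overlaps Hist1h2be on the same strand, which had 40 counts over all libraries against 751 for Hist1h1e. Of these 40, 28 were in VPA replicate 2, the library with the highest Hist1h1e level.

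Hist1h1d (ENSMUSG00000052565, positions 23553262 to 23560686, plus strand), encoding H1.3, was low without VPA at 1.18, 2.56 and 2.74 CPM and measured 6.53, 10.5, 8.83 and 10.6 CPM with VPA. Every VPA library was higher, although the value of CTR replicate 1 was at the limit that a count of 0 allows in that library. It met the filter on low counts through the VPA libraries alone, with 0 CTR libraries over it. The log2 difference was 2.05 with a standard error of 0.739, an adjusted p of 0.537 and an unadjusted p of 0.0253 in edgeR. Only 2.25% of its 50-base stretches occur in another gene, the lowest share among the tested histone genes.

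Hist1h1c (ENSMUSG00000036181, positions 23738808 to 23740367, plus strand), encoding H1.2, measured 28.4, 42.8 and 19.2 CPM in CTR slices and 49.6, 67.3, 38.5 and 48.3 CPM with VPA. The groups overlapped through CTR replicate 2 and VPA replicate 3. The log2 difference was 0.75 (standard error 0.333, adjusted p = 0.611 in edgeR). Between libraries with the same title number it was higher with VPA each time, at 38.5 against 19.2 CPM for number 71, 48.3 against 28.4 for 72 and 67.3 against 42.8 for 74. With that number as a block the log2 difference was 0.80 (standard error 0.210, adjusted p = 0.554 in edgeR), to which VPA replicate 1, alone with its number, adds nothing. The 2 remaining H1 genes had at most 13 counts.

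The H1 sum was 61.1, 70.2 and 46.6 CPM without VPA and 91.4, 172, 99.6 and 125 CPM with it. All VPA libraries exceeded all CTR libraries, with a log2 ratio of 1.04. Nearly all of this sum lay in Hist1h1c, Hist1h1d and Hist1h1e, the other 2 genes having 13 counts and 1 count in all. Leaving out single libraries kept this ratio between 0.83 (without VPA replicate 2) and 1.18. Sums over chosen genes carry no p-value here.

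**Figure D4:**
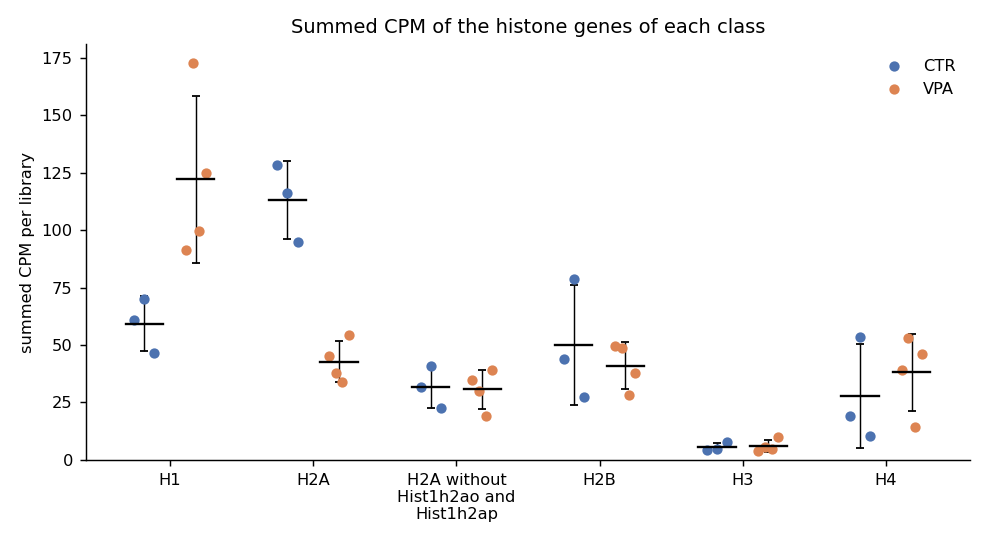
Summed CPM of each histone class in each library (points), with the mean and SD of the 3 CTR and 4 VPA libraries. The H1 sum was higher and the H2A sum lower in all 4 VPA libraries, and the H2B, H3 and H4 sums and that of H2A without Hist1h2ao and Hist1h2ap overlapped.

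The H2B sum came mostly from Hist1h2bc (ENSMUSG00000018102, positions 23684199 to 23692908, plus strand), which held 87.3% of the H2B counts. It measured 35.5, 71.6 and 22.5 CPM in CTR slices and 47.0, 38.7, 24.1 and 34.7 CPM with VPA. CTR held both the highest and the lowest library, and the log2 difference was -0.26 (standard error 0.421, adjusted p = 0.948 in edgeR), turning to 0.31 without CTR replicate 2. Of the other H2B genes none had over 40 counts, and 12 of the 16 were under 10. No count in any VPA library was found for 9 of the 16 H2B genes and none in any CTR library for 1, against 15.4% and 8.63% of all genes with a count. At this depth few counts decide this, and Hist1h2bm, among the 9, had 9 counts, all in CTR replicate 2. The summed H2B level ranged from 27.4 to 78.8 CPM without and from 28.1 to 49.6 CPM with VPA.

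The core histone H4 genes with a test also overlapped. Hist1h4i (ENSMUSG00000060639) measured 11.03, 14.98 and 4.93 CPM in CTR slices and 11.8, 17.5, 4.01 and 15.1 CPM with VPA, a log2 difference of 0.23 (standard error 0.662, adjusted p = 0.968 in edgeR). Hist1h4h (ENSMUSG00000060981) measured 3.15, 15.97 and 0.548 CPM against 13.7, 8.92, 2.41 and 7.55 CPM, a log2 difference of 0.29 (standard error 1.08, adjusted p = 0.975 in edgeR). The standard error of Hist1h4h exceeds its difference, and the sign of both turns when certain single libraries are left out. Hist1h4c, with the most counts among the untested genes (93), was at 0, 9.26 and 0 CPM in CTR slices and 0, 12.3, 0 and 4.53 CPM with VPA. Hist1h4b (44 counts) ranged from 0 to 4.34 and from 0 to 4.92 CPM. Though 11 of 13 H4 genes had the higher mean with VPA, the H4 sum was 27.8 ± 22.8 CPM in CTR slices and 38.1 ± 16.8 CPM with VPA, and its log2 ratio of 0.46 became 1.36 without CTR replicate 2 and 0.065 without CTR replicate 3.

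H3 genes were the least covered. None of the 10 could be tested, and their sum of 5.58 ± 1.83 CPM without and 6.02 ± 2.62 CPM with VPA overlapped. Over all 60 genes the sum was 256 ± 68.3 CPM in CTR slices and 250 ± 58.6 CPM with VPA, a log2 ratio of -0.03 that has no stable sign. It was 0.18 with Hist1h2ap left out as a copy, 0.45 without the pair, and -0.22 to 0.17 with a library left out. By mean CPM, 29 genes were higher and 31 lower with VPA.

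**Figure D5:**
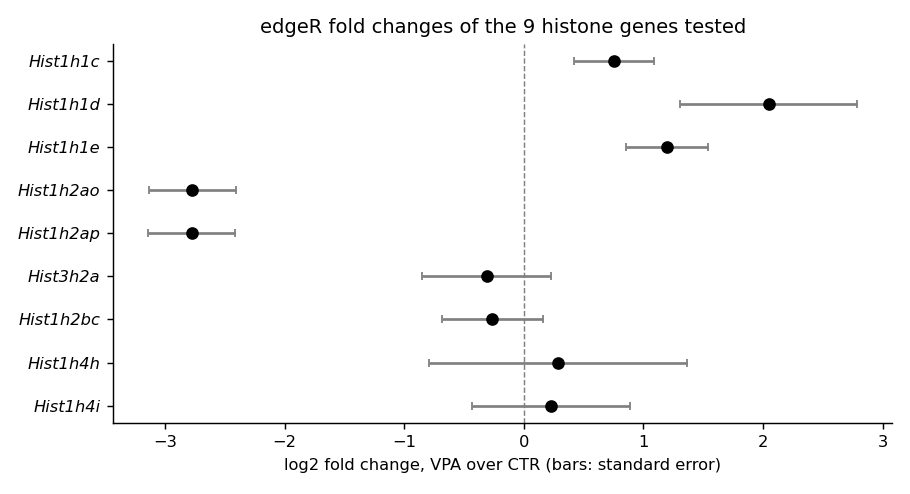
Log2 fold change (VPA against CTR) of the 9 tested histone genes in the edgeR fit, with bars of 1 standard error. Hist1h2ao and Hist1h2ap lie near -2.8, the 3 H1 genes between 0.75 and 2.05, and the H2B, H4 and Hist3h2a values within 0.31 of 0.

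A list of genes of histone mRNA processing, which also holds general polyadenylation factors such as Papola and Pabpn1, was next read beside the histone genes. Of 26 tested, 12 were higher and 14 lower with VPA, with a median log2 difference of -0.07, and none passed the adjusted threshold in edgeR or DESeq2. At an unadjusted p under 0.05 in edgeR, 0 were higher and 2 lower, against 3.65% and 4.62% of all genes. Slbp, whose product binds the stem-loop, measured 21.7 ± 11.6 CPM in CTR slices and 29.03 ± 26.4 CPM with VPA, the latter mean falling to 15.9 CPM without VPA replicate 1. Among the best covered were Tut7, a terminal uridylyltransferase, at 213 against 204 CPM, Papola, a poly(A) polymerase, at 176 against 168, Upf1, a helicase of mRNA decay, at 156 against 173, and Pabpn1, a nuclear poly(A) binding protein, at 167 against 126. The summed level of the list was 1811 to 1996 CPM in CTR slices and 1695 to 1771 CPM with VPA, lower in every VPA library, and its part in the histone differences was not tested. Those 2 lower genes, named after their values were seen, were Cstf2, a cleavage stimulation factor subunit, at 90.4 against 52.6 CPM and Srrt, at 152 against 99.97 CPM.

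S-phase genes act in DNA replication alongside histone synthesis. Of 33 tested, 10 had higher and 23 lower values with VPA, with a median log2 difference of -0.37 against -0.06 over all genes, but 7 of those lower met the filter through CTR libraries alone, Mcm4 and Chaf1a among them. Of the 19 that met it in each group on its own, 6 had higher and 13 lower values, with a median of -0.27. None passed the adjusted threshold in edgeR, 5 were lower and 0 higher at an unadjusted p under 0.05 (4.62% and 3.65% of all genes), and DESeq2 called 3 lower (0.746% of all genes), Top2a, Chaf1a and Mcm4. Top2a, a topoisomerase of dividing cells, measured 48.1, 54.8 and 35.6 CPM in CTR slices and 3.92, 15.1, 13.6 and 6.80 CPM with VPA, without overlap. Chaf1a, the large subunit of the chaperone that places new H3 and H4 on replicated DNA, measured 68.6, 53.8 and 35.1 CPM in CTR libraries and was at 0 counts in all 4 VPA libraries. Mcm4, a subunit of the replicative helicase, measured 11.4, 14.2 and 6.03 CPM and was likewise at 0 with VPA. The best covered genes of the list were closer, Rfc1 at 123 against 136 CPM, Mcm7 at 131 against 107, Lig1 at 114 against 86.8 and Rpa1 at 47.5 against 47.6. The summed S-phase level was 1030 to 1294 CPM in CTR slices and 778 to 916 CPM with VPA, so it was lower in the same libraries as the Hist1h2ao and Hist1h2ap counts, and its part in that difference was not tested.

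Markers of the liver's cell types were read in the same libraries, and edgeR called none of those tested at an adjusted p of 0.05, so higher and lower here describe values. All 8 hepatocyte markers were tested, 5 higher and 3 lower, with sums of 8461 to 21610 CPM in CTR slices and 5646 to 18236 CPM with VPA. Of 8 markers of stellate cells or myofibroblasts, 2 were higher and 6 lower (median -0.75, or -0.59 over the 7 that met the filter in each group), 3 of them at an unadjusted p under 0.05, with sums of 1899 to 4159 and 1496 to 2925 CPM. DESeq2, but not edgeR, called the collagen genes Col1a1 and Col1a2 lower, as it did 0.746% of all genes. Of 6 endothelial markers, 5 were tested, all with lower values (median -0.61, or -0.42 over the 3 that met the filter in each group). None was at an unadjusted p under 0.05 in edgeR, and the sums of 232 to 327 and 86.2 to 256 CPM overlapped. Of the 6 tested macrophage markers 3 were higher and 3 lower, with sums of 294 to 404 and 281 to 548 CPM, and Adgre1 and Marco were at 0 in every library. Of the 4 tested cholangiocyte markers 2 were higher and 2 lower, with sums of 268 to 614 and 258 to 741 CPM. Of the lymphocyte and neutrophil markers 1 was tested, Cd79a, S100a8 and S100a9 were at 0, and sums were 11.03 to 18.7 and 7.07 to 35.3 CPM. The part of these levels in the histone differences was not tested.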

How the data were processed

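RNA of PCLS was prepared as 3′ end libraries. The authors trimmed reads, mapped them to GRCm38 with STAR, used StringTie, and deposited raw counts per Ensembl gene, whole numbers without normalization. The counting program and its settings for strand and for multimapping reads are not given in the sources used here. Groups and replicate numbers came from the sample labels.

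The test was edgeR 4.0.16 (R 4.3.3), with TMM, filterByExpr at its default minimum of 10 counts, a robust quasi-likelihood fit of condition over all 7 libraries and Benjamini-Hochberg adjustment over 10876 genes. It was tested on simulated data with known fold changes. DESeq2 1.42.0, limma 3.58.1 (voom), other scalings and filters, blocks and left-out libraries were alternatives. Totals of 1400887 to 4773750 counts limit the precision. Within each group, every pair of libraries differed beyond counting noise (chi-square per degree of freedom 14.7 to 27.3).

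Members and lists were chosen with earlier results of these data known. Named were all histone genes passing the filter, the 5 untested ones with most counts, those called in an alternative, and of each list at most 4 of the highest mean CPM and those called. Slbp, Cstf2, Srrt, the markers at 0 and several histone genes with few or no counts were named outside this rule. Pseudogenes (3) and 260 genes without a symbol were left out. Transcript sequence is the C57BL/6J reference, whereas the mice were Balb/c.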

Additional observations from a re-analysis of the deposited data

Results flagged for a closer look

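The total count of VPA replicate 2 stood apart from the other VPA libraries, at 3102450 counts against 1400887 to 1515954. It was the only 1 of 17 measures that stood apart in this way, and chance alone gives about 1 such value in 20. CTR libraries, with 3 in the group, were not looked at in this way. The H1 sum was highest in this library, and without it the log2 ratio of the H1 sum was 0.83.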

How the results depend on the processing

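No histone gene was called by edgeR under any of its alternatives or by limma-voom, and 2 were called lower by DESeq2 (Hist1h2ao and Hist1h2ap). The number higher at an unadjusted p under 0.05 was 1 without a filter on low counts, 1 with a replicate block by replicate number, 1 with genes of a class and cluster summed, 3 with limma-voom, 3 with upper quartile normalization, and 1 to 3 with a library left out, being 1 without CTR replicate 1 and without CTR replicate 3. The number lower was 0 where at least 10 counts were required in every sample, which left 3 genes, 1 with classes summed and 1 with Hist1h2ap left out. The median log2 difference of the tested genes was -0.31 without a filter, 0.76 where every sample needed 10 counts or more, and -0.36 (without CTR replicate 3) to 0.59 with a library left out. Left-out libraries turned Hist1h4i (-0.12 to 0.59), Hist1h4h (-0.26 to 2.07) and Hist1h2bc (-0.59 to 0.31, the latter without CTR replicate 2). Hist3h2a ranged from -0.68 (without VPA replicate 4) to -0.11 and was at -0.76 with a replicate block by number, while Hist1h2ao stayed between -2.91 and -2.60, with adjusted p from 0.104 to 0.727 in edgeR. Without Hist1h2ao and Hist1h2ap, an alternative chosen after seeing the data, as was leaving out Hist1h2ap, the log2 ratio was 0.45 for all histone genes and -0.040 for H2A. The H2A ratio was -0.98 without Hist1h2ap and -1.94 over tested genes alone. The mean number of genes with at least 3 counts was 20.7 in CTR and 19.2 in VPA libraries, and after thinning 31.1 genes had a count in CTR and 28.9 in VPA libraries. With a library left out, the log2 ratio ranged from -1.54 to -1.30 for the H2A sum, from -0.58 to 0.21 (without CTR replicate 2) for H2B and from -0.23 to 0.41 for H3. The median of the mRNA processing list ranged from -0.10 to 0.10 (without CTR replicate 2) and that of the S-phase list from -0.58 to -0.24 with a library left out, and DESeq2 called 3 S-phase genes lower. Where the cause is not plain from fewer genes or libraries, the cause was not tested.

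Over all genes, deviations of same-numbered libraries correlated at -0.05, 0.05 and 0.11 for replicate numbers and at 0.11, 0.03 and 0.05 for title numbers, so neither passed 0.1 in every pair and neither was taken as a pairing, although a replicate block by title number lowered the standard error of Hist1h1c from 0.333 to 0.210 and of Hist1h2bc from 0.421 to 0.299. With a replicate block by number Hist1h2ao was at -2.92 (adjusted p = 0.443 in edgeR), with a replicate block by title number at -2.74 (adjusted p = 0.494 in edgeR), and no histone gene was called in either. Depth limits most genes, since 51 of 60 had too few counts for a test.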

Other observations

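Library titles carry a number, not explained in the labels, and numbers 71, 72 and 74 each occur on 1 library of either group. Among the 16 histone genes with at least 40 counts, the library with number 74 was the highest of its group in both groups for 6 (Hist2h2aa1, Hist1h4i, Hist1h2ae, Hist1h4c, Hist1h1c and Hist1h4b), which was so for 12% of all genes tested. For number 72 it was so for 3 (Hist3h2a, Hist1h2ao and Hist1h2ap), against 8.27% of all genes, and for number 71 for 0, against 11.4%. These counts were taken after the values were seen and were not tested. The libraries with number 74 held the most counts of their groups, 4773750 in CTR and 3102450 in VPA. The 16 genes include some without a test, and Hist1h2ao and Hist1h2ap are counted separately.

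Identical coding sequences were found in 5 groups holding 10 of the 60 genes, and 8 genes shared over 90% of their 50-base stretches with other genes. Among histone genes with at least 5 counts, 1 pair had the same count in every library, Hist1h2ah and Hist1h2ad, at 6 counts each. Counts of all these genes are uncertain as to locus. No count was found in any VPA library for 15 of the 60 genes (25%, against 15.4% of all genes with a count) and in any CTR library for 4 (6.67%, against 8.63%). All VPA libraries held fewer genes with a count than all CTR libraries. Among the 4 genes without a count in any CTR library were Hist2h2ab, with 10 counts, and Hist2h2aa2, whose 8 counts were all in VPA replicate 1. Both were named after their values were seen.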
